A study of Mus musculus with 6 samples.

Results

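Transcripts of the nuclear-encoded oxidative phosphorylation machinery were examined in the epidermis of newborn mice labelled as Hnrnpu knockouts and of control mice. The genes were chosen by symbol: every nuclear gene starting with Nduf, Uqcr, Atp5, Cox4, Cox5, Cox6, Cox7 or Cox8, plus Sdha, Sdhb, Sdhc and Sdhd. This rule gave 84 of the 12894 genes in the deposited table, of which 43 were assigned to complex I, 4 to complex II, 8 to complex III, 13 to complex IV and 16 to complex V. Another 23 gene names that fit the rule, among them Cox4i2, Cox6a2, Cox7a1 and Atp5g2, were not analysed here.

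The study profiled whole-tissue RNA by bulk sequencing in 6 libraries, 3 labelled knockout and 3 control, to compare the transcriptomes of Hnrnpu-deleted and control epidermis. Hnrnpu encodes a nuclear RNA-binding protein of the hnRNP family. The knockouts were made with loxP-Cre, and the driver of Cre is not given in the sources used here. All animals were C57BL/6 mice at postnatal day 0, and the epidermis was separated from the dermis. Control 1 was labelled wild type, whereas the genotype label of controls 2 and 3 was read as heterozygous. Each title carries its own number, so each library was taken as 1 animal.

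The oxidative phosphorylation system sits in the inner mitochondrial membrane. Complexes I and II pass electrons from NADH and succinate to ubiquinone, complex III hands them to cytochrome c, and complex IV reduces oxygen. Complexes I, III and IV pump protons, and complex V (ATP synthase) uses the returning protons to make ATP. Most subunits are encoded in the nucleus and imported, while a small core is encoded by mitochondrial DNA, so that the complexes are built from both genomes with the help of dedicated assembly factors.

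The libraries did not all match what their labels imply. Normalized counts of Hnrnpu were 1565, 1342 and 1036 in knockout 1 to 3, by their labels, against 1450.3, 1318 and 1159.9 in controls 1 to 3, a log2 difference of −0.01 ± 0.20 (SE; limma with Benjamini-Hochberg adjustment over all genes, adjusted p = 0.976). The labels do not say which part of the gene was deleted, and every direction given here rests on the labels. Xist had 5656 and 4758 normalized counts in knockout 2 and 3, 1.87 in knockout 1, and between 0 and 3.27 in the controls, while Ddx3y was listed at 0 in knockout 2 and 3 and had 323 in knockout 1 and 544 to 646 in the controls. Sums of normalized counts were 8191409, 10987666 and 8469679 in knockout 1 to 3, against 6850663 to 7453638 in controls. All 8 keratinocyte markers of the list used were above 1 in every control, and 2 of them rose and 1 fell in the knockout libraries. Markers of melanocytes were higher in the knockout libraries for 8 of 8 genes, with summed levels of 3104 to 4978 normalized counts in knockouts and 478 to 711 in controls. Of the dermal fibroblast markers, 6 of 9 were measured and 3 rose, with sums of 599 to 801 in knockouts and 196 to 544 in controls. Of 7 adipocyte markers, Cidea was measured, at 35.5 to 88.5 in knockouts and 3.78 to 7.97 in controls. Of 3 endothelial markers, Pecam1 was measured, at 6.54 to 59.5 in knockouts and 2.66 to 5.72 in controls, and was not called. Of 7 leukocyte markers 5 were measured, with sums of 123 to 822 in knockouts and 230 to 295 in controls, and 1 rose and 1 fell. Of 5 erythroid markers 3 were measured, with sums of 0.934 to 695 in knockouts and 13.6 to 112 in controls, and none was called. No marker of skeletal muscle (of 10 on the list) was analysed. The part of these cell type markers, the sex-linked transcripts and the library sums in the results below was not tested. In bulk tissue, fewer cells of a type and less RNA per cell cannot be told apart.

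All 84 genes passed the filter on low values, which kept genes above 1 normalized count in at least 3 of the 6 libraries. In the knockout libraries 17 rose, 1 fell (Ndufaf7) and 66 were not called at an adjusted p under 0.05, by limma on log2(normalized counts + 1). The called share was 21.4%, against 33.6% of the 12872 genes tested. The share called higher was 20.2%, against 17.7% of all genes. The share called lower was 1.19%, against 15.9% of all genes. The median log2 difference was 0.17 over the 84 genes, with a range of −1.90 to 1.76, and −0.02 over all genes tested. The changes were small: 56 of the 84 genes, 66.7%, lay within 0.5 of 0 on the log2 scale, against 42.1% of all genes. The 84 genes also varied less within groups. Their median SD on that scale was 0.12 in controls, against 0.251 over all genes, and 0.277 in knockouts, against 0.369. The part of this spread in the contrast was not tested. Uqcrq, Ndufa4 and Ndufaf7, 3.57% of the 84 genes, were both called and changed at least 2-fold, against 23.8% of all genes. All 3 knockout libraries lay above all 3 controls for 28 genes, 33.3%, against 25.8% of all genes, and below them for 9 genes, 10.7%, against 25.0% of all genes. Over all genes tested, 50.8% did not overlap in either direction. With every library scaled to the same total, in place of the authors' scaling, 5 of the 84 genes rose (5.95%, against 11.2% of all genes) and 7 fell (8.33%, against 23.8% of all genes). Their median was −0.17, while the median of all genes moved to −0.36. The 5 were Uqcrq, Ndufa4, Cox6b1, Uqcrfs1 and Atp5g3, and the 7 were Ndufaf7, Cox6c, Ndufa4l2, Ndufs3, Ndufs7, Ndufv3 and Uqcr11, so that the other 12 genes that rose were not called there. The genes' median lay 0.19 above that of all genes under both scalings. Scaling whole libraries shifts nearly all genes alike, so this gap could not have changed much and is no separate support.

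**Figure D1:**
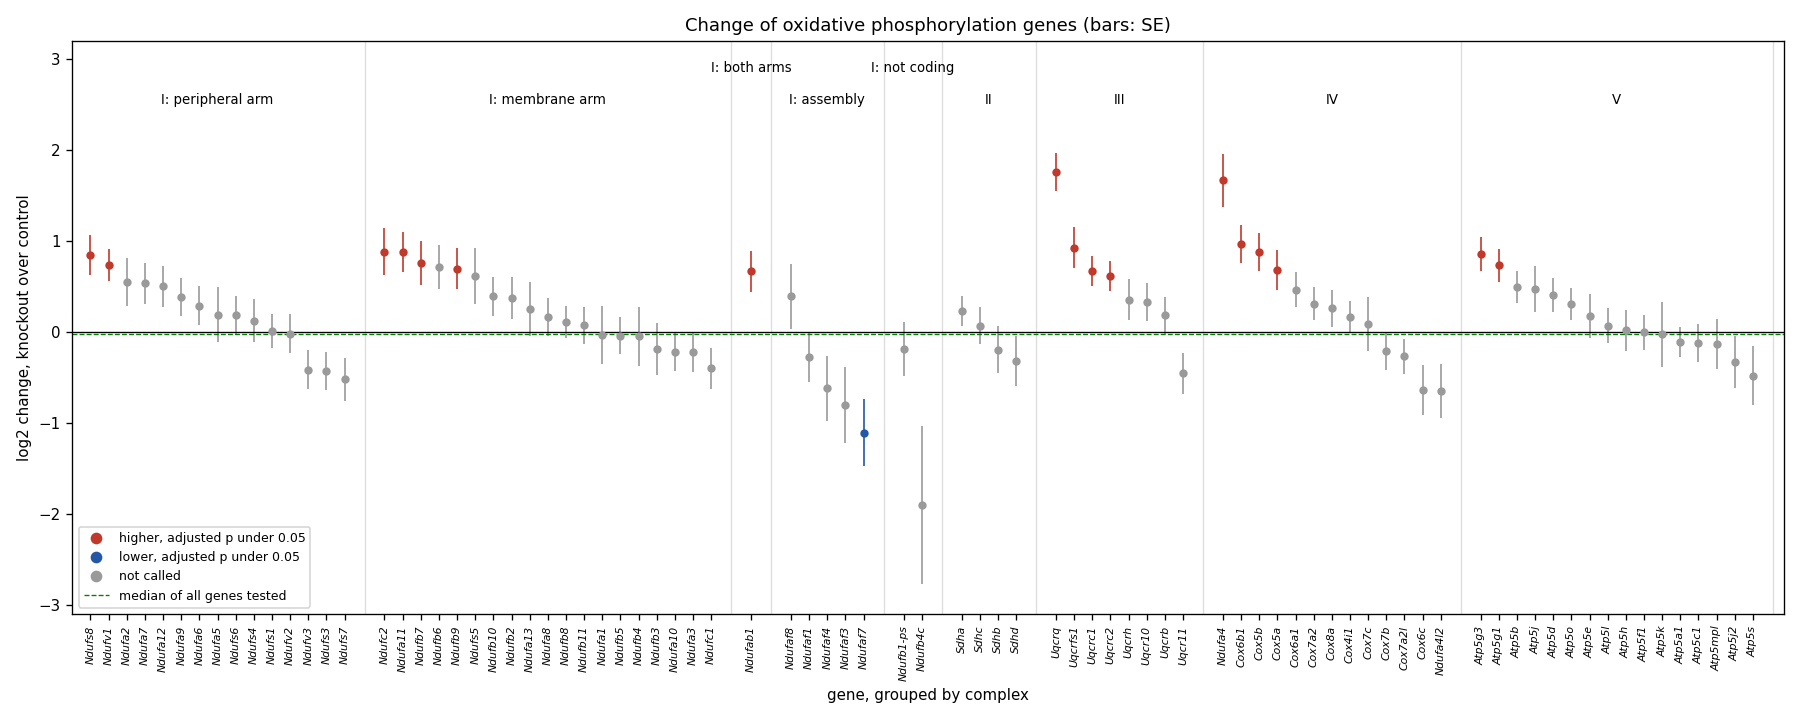
Log2 change (knockout over control, vertical axis) of the genes, 1 of the 84 not being shown, grouped by complex and sorted within each group, with the standard error as a bar. Red points rose and the blue point, Ndufaf7, fell at an adjusted p under 0.05. The dashed line is the median of all genes tested (−0.02). Uqcrq and Ndufa4 stand highest, at 1.76 and 1.66, and genes on both sides of 0 occur in each of the 5 complexes.

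The promoters of 4 genes that rose are shown: Ndufa4, the called gene with the largest change among those with a promoter entry, which holds none of the motifs searched; Cox6b1 and Ndufb7, which hold an ETS-type motif; and Ndufa11, which holds a nuclear respiratory factor 1 (NRF1) motif. Ndufa4 and Cox6b1 were taken for the size of their rise, and Ndufa11 and Ndufb7 because they held a motif. The 4 therefore do not show how common the motifs are among the genes that rose. NRF1 and GA-binding protein, an ETS factor, are known activators of many nuclear genes for mitochondrial proteins. Each sequence is the 250 bases before the annotated start, from RefSeq on GRCm38.p6, a different build from the mm39 of the deposited values, and is written 5′ to 3′ on the gene's strand. They lie at chr6:11907451-11907700 (minus strand) for Ndufa4, chr7:30626115-30626364 (minus) for Cox6b1, chr17:56717512-56717761 (plus) for Ndufa11 and chr8:83566508-83566757 (plus) for Ndufb7. Capitals mark the motif, and Ndufa4 has none.
Ndufa4: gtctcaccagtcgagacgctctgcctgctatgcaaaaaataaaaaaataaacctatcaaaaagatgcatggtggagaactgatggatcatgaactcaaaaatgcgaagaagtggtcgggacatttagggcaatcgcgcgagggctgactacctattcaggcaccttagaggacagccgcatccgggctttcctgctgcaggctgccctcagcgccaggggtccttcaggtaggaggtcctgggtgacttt
Cox6b1: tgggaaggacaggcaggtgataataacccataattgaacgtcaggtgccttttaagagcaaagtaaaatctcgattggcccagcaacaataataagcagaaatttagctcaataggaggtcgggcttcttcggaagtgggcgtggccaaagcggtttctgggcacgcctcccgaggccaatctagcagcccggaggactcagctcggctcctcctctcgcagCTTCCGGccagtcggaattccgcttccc
Ndufa11: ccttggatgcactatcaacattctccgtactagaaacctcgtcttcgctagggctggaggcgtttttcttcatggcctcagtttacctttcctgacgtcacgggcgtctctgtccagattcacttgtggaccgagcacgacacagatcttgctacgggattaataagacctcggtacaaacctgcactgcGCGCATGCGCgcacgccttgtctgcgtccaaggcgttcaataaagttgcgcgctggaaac
Ndufb7: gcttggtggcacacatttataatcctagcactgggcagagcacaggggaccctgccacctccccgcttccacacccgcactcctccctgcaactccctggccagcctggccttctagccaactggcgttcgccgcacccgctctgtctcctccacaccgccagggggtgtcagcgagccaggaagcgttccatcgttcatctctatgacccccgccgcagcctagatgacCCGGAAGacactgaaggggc
In Cox6b1 the capitals are the reverse complement of CCGGAAG, and in Ndufb7 they are CCGGAAG as written. In Ndufa11 the capitals are the NRF1 motif GCATGCGC on both strands, the 2 matches overlapping.

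Promoters were matched for 70 of the 84 genes, 3 of them by synonym, and 4 motifs were searched on both strands. GCATGCGC stood in 8 of the 70 (11.4%), against 2.56% of the 27025 genes with a promoter entry, which were not limited to genes measured here. CCGGAAG stood in 14 of 70 (20%), against 7.83%. AAGATGGC, a short form of the YY1 motif used after a longer form had been searched, stood in 1 of 70 (1.43%), against 1.83%. TGATGCAA, an element of C/EBP and ATF factors, was in 0 of 70, against 0.918%. Among the 14 genes with a promoter that rose, 1 held GCATGCGC (7.14%) and 2 held CCGGAAG (14.3%). Among the 55 that were not called, 7 held GCATGCGC (12.7%) and 12 held CCGGAAG (21.8%). A match is a description of the letters and neither a site nor a cause. The genes for both factors were measured. Nrf1 had 201, 175 and 240.6 normalized counts in knockout 1 to 3, against 156, 172 and 166 in controls 1 to 3, and was not called (0.31 ± 0.20 on the log2 scale, limma adjusted p = 0.253). Gabpa, the DNA-binding subunit of GA-binding protein, differed by 0.03 ± 0.16 (adjusted p = 0.909).

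Complex III, the cytochrome bc1 complex, had the highest called share. Of its 8 genes under the symbol rule, which leaves out Cyc1, 4 rose and 0 fell (50.0%, against 33.6% of all genes), with a median of 0.49. Uqcrq (ENSMUSG00000044894, chromosome 11), a small subunit of the complex, had 859.7, 1368 and 1049 normalized counts in knockout 1 to 3, against 301, 305 and 346 in controls 1 to 3. Each knockout library was more than double every control. The fold was 3.38 on the log2(normalized counts + 1) scale, a log2 change of 1.76 ± 0.21 (SE, n = 3 and 3; limma adjusted p = 0.000716), and its 95% interval ran from 1.28 to 2.23. This was the largest change of the 84 genes in either direction among those called, and the call held in all 15 alternatives, with adjusted p between 0.000375 and 0.007.

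Uqcrfs1 encodes the Rieske iron-sulphur protein, which takes electrons from ubiquinol. It had 643, 1164 and 868 normalized counts in knockout 1 to 3, against 443, 475 and 449 in controls 1 to 3, a log2 change of 0.93 ± 0.23 (adjusted p = 0.0162). Uqcrc1, a core protein of the matrix side, had 1201, 1051 and 1228 in knockouts and 773, 751 and 667 in controls, a change of 0.67 ± 0.16 (adjusted p = 0.0155). Its partner Uqcrc2 had 584, 703 and 716 in knockouts and 433, 447 and 422 in controls, a change of 0.62 ± 0.17 (adjusted p = 0.0235). For these 3 genes the groups did not overlap, and for Uqcrfs1 the knockout libraries were spread much more widely than the controls. The other 4 genes of the complex under the symbol rule were not called: Uqcrh, Uqcr10 and Uqcrb had log2 differences of 0.35, 0.33 and 0.18, and Uqcr11 of −0.46. The call of Uqcrfs1 was lost without control 1 or 3 and with knockout 1 alone. That of Uqcrc1 was lost without control 2 or 3, with equal library totals and with quantile normalization. That of Uqcrc2 was lost without any 1 control, without knockout 3, with knockout 1 alone and with equal library totals (adjusted p up to 0.128, 0.252 and 0.25 over all alternatives). Without control 1, 2 or 3, the genes that rose in the complex numbered 2, 2 and 1.

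Complex IV, cytochrome c oxidase, followed with 4 of 13 genes higher and 0 lower (30.8%, near the 33.6% of all genes), and a median of 0.26. Ndufa4 (ENSMUSG00000029632, chromosome 6) was once counted as a complex I subunit and is now known as a subunit of complex IV, to which it was assigned here. It had 863, 2031 and 1479 normalized counts in knockout 1 to 3, against 395, 447 and 460.2 in controls 1 to 3. All knockout libraries lay well above the controls, and knockout 1 was the lowest of them. The log2 change was 1.66 ± 0.29, a fold of 3.17 (limma adjusted p = 0.00406), and the call held in all 15 alternatives, with adjusted p up to 0.0211.

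Ndufa4l2, the paralog of Ndufa4 that is known as a hypoxia-induced gene, was at the opposite end of the complex. It had 1132, 1887 and 1651 normalized counts in knockout 1 to 3, against 1635, 3337 and 2496 in controls 1 to 3. The groups overlapped through control 1, the lowest control. The log2 difference was −0.65 ± 0.29 and was not called (limma adjusted p = 0.118). Each knockout library was below the control with the adjacent animal number, and with these numbers as a replicate block the adjusted p was 0.00887. The block was chosen from these same data and not from a stated litter, so its adjusted p, here and below, is not independent support. The adjusted p over all alternatives ran from 0.00887 to 0.347.

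The 3 other genes that rose in complex IV encode nuclear subunits around the mitochondrially encoded core. Cox6b1 had 781, 1283 and 1039 normalized counts in knockout 1 to 3, against 494, 543 and 521 in controls 1 to 3, a change of 0.97 ± 0.21 (adjusted p = 0.00952). Cox5b had 242.1, 367 and 314 in knockouts and 171, 167 and 155 in controls, a change of 0.88 ± 0.21 (adjusted p = 0.0142). Cox5a had 414, 682 and 593 in knockouts and 329, 344 and 360.4 in controls, a change of 0.68 ± 0.22 (adjusted p = 0.0414). In each, the lowest knockout was knockout 1 and the highest was knockout 2, and the groups did not overlap. The call of Cox6b1 was lost in 1 of 15 alternatives, where knockout 1 alone was compared with the controls (adjusted p = 0.0827). That of Cox5b was also lost without control 3, and that of Cox5a was lost without any 1 of controls 1 to 3 or knockout 2 or 3 (adjusted p up to 0.143 and 0.408). Leaving out control 3 lowered the number of genes called in the complex to 2.

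The remaining genes of complex IV were not called. Cox6a1, which encodes the isoform found in most tissues, had 958, 1410.1 and 1209.8 normalized counts in knockout 1 to 3, against 778, 889.8 and 898 in controls 1 to 3, a log2 difference of 0.46 ± 0.19 (adjusted p = 0.0915, and 0.0363 with the replicate block). Cox4i1, which encodes the common isoform of subunit 4, had 544, 643 and 511 in knockouts and 541, 498 and 468 in controls, a difference of 0.17 ± 0.17 (adjusted p = 0.474). Cox7a2, Cox8a and Cox7c differed by 0.31, 0.26 and 0.08. Cox7b, Cox7a2l and Cox6c differed by −0.22, −0.27 and −0.64. The Cox6c value came mostly from knockout 1: it had 77.6, 111 and 149.8 normalized counts in knockout 1 to 3, against 197, 166 and 149.8 in controls. Without knockout 3 Cox6c was called lower, and over all alternatives its adjusted p ran up to 0.267.

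**Figure D2:**
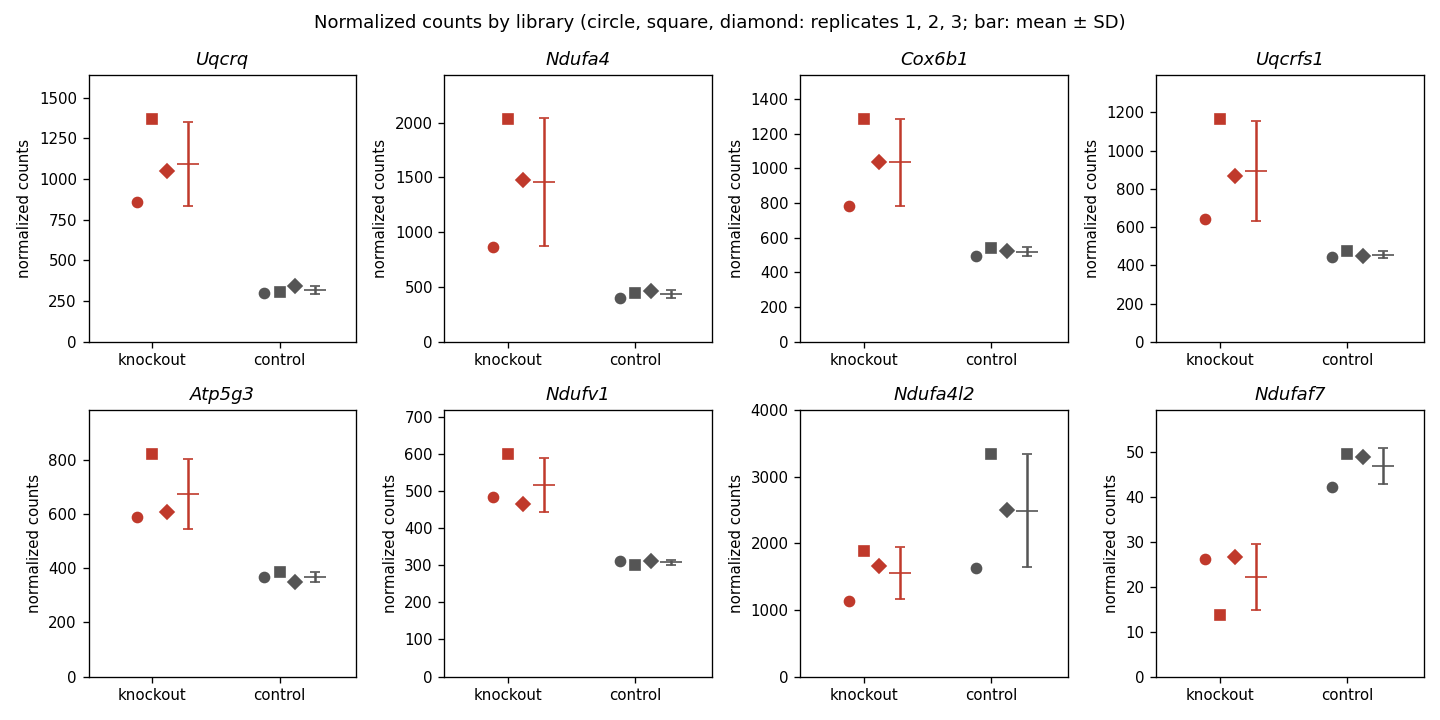
Normalized counts per library for 8 of the 84 genes, knockout (red) left of control (grey), with a circle, square and diamond for replicates 1 to 3 and the mean ± SD beside them. Knockout and control libraries do not overlap for Uqcrq, Ndufa4, Cox6b1, Uqcrfs1, Atp5g3 and Ndufv1 (knockout above) or for Ndufaf7 (knockout below), and they overlap for Ndufa4l2.

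In complex I, the NADH dehydrogenase, 7 of 43 genes rose and 1 fell (18.6%, below the 33.6% of all genes), with a median of 0.12. In the peripheral arm, where NADH is oxidised, 2 of 16 genes rose and 0 fell (12.5%, against 33.6% of all genes). Ndufv1, which carries the flavin that accepts electrons from NADH, had 483, 599 and 465 normalized counts in knockout 1 to 3, against 311, 299 and 312 in controls 1 to 3, a change of 0.73 ± 0.18 (limma adjusted p = 0.0147). Ndufs8, an iron-sulphur subunit at the ubiquinone end, had 127, 157 and 173 in knockouts and 77.0, 92.1 and 83.4 in controls, a change of 0.84 ± 0.22 (adjusted p = 0.0203). The groups of both genes were well apart. Other core subunits of this arm did not pass the test. Ndufs1, the largest subunit, had 334, 435 and 469.9 in knockouts and 394, 414 and 413 in controls, a difference of 0.01 ± 0.19 (adjusted p = 0.982). Ndufv2 differed by −0.02, and Ndufs3 and Ndufs7 by −0.43 and −0.52, with every knockout library below every control for the last 2. Ndufa7, an accessory subunit, had 256, 383 and 377 in knockouts and 199, 232 and 263 in controls, a difference of 0.53 ± 0.22 (adjusted p = 0.0982, and 0.0341 with the replicate block). Without control 1, 2 or 3, the genes of the whole complex that rose numbered 0, 0 and 2, and without knockout 2 or 3 they numbered 3. The call of Ndufv1 was lost without control 1 or 2, and that of Ndufs8 without any 1 control (adjusted p up to 0.0995 and 0.184 over all alternatives).

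In the membrane arm, where protons are pumped, 4 of 19 genes rose and 0 fell (21.1%, against 33.6% of all genes). Ndufa11 had 228, 323 and 278 normalized counts in knockout 1 to 3, against 125, 155 and 169 in controls 1 to 3, a change of 0.88 ± 0.22 (adjusted p = 0.0167). Ndufc2 had 140.2, 208 and 254 in knockouts and 116, 109 and 92.4 in controls, a change of 0.88 ± 0.26 (adjusted p = 0.0316). Ndufb7 had 72.9, 85.1 and 96.5 in knockouts and 49.8, 49.6 and 49.0 in controls, a change of 0.76 ± 0.24 (adjusted p = 0.0406). Knockout 1 was the lowest knockout library for all 3. Ndufb9 had 202, 197 and 261 in knockouts and 155, 109 and 145 in controls, a change of 0.69 ± 0.22 (adjusted p = 0.0439). Ndufb6 had a difference of similar size, 0.71 ± 0.24, and was just short of the threshold (adjusted p = 0.0522, and 0.0405 with the replicate block). Ndufb8 and Ndufa10, those with the highest means in this arm, differed by 0.11 ± 0.18 (adjusted p = 0.658) and −0.22 ± 0.21 (adjusted p = 0.444). The call of Ndufa11 was lost without control 1 or 2. Those of Ndufc2 and Ndufb7 were lost without any 1 control or without knockout 2 or 3, and that of Ndufb9 was lost without any 1 of the 6 libraries (adjusted p up to 0.16, 0.337, 0.269 and 0.335).

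Ndufab1 encodes the mitochondrial acyl carrier protein, which is held in both arms of complex I and also serves fatty acid synthesis. It had 91.8, 103 and 111 normalized counts in knockout 1 to 3, against 62.5, 70.0 and 59.2 in controls 1 to 3. The groups did not overlap, and the change of 0.67 ± 0.22 passed the threshold narrowly (adjusted p = 0.049), a call lost without any 1 of the 6 libraries. The annotation holds a near-identical copy, Gm4459, to which reads could be shared, and the sum of both had a log2 difference of 0.62.

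Of the 5 assembly factors named Ndufaf, which help to build complex I, 1 fell and none rose, with a median of −0.62. Ndufaf7, a methyltransferase needed for assembly, had 26.2, 13.6 and 26.6 normalized counts in knockout 1 to 3, against 42.3, 49.6 and 49.0 in controls 1 to 3. Every knockout library was below every control. The log2 change was −1.11 ± 0.37 (adjusted p = 0.047), and the call was lost with quantile normalization, without any 1 control and without knockout 1 or 2 (adjusted p up to 0.165 over all alternatives). Ndufaf3 had 14.0, 11.9 and 21.1 in knockouts and 27.9, 21.2 and 34.3 in controls, with no overlap and a difference of −0.80 ± 0.42 that was not called (adjusted p = 0.166). Ndufaf4 and Ndufaf1 differed by −0.62 ± 0.36 and −0.28 ± 0.28 (adjusted p = 0.205 and 0.457). Ndufaf8 differed by 0.39 ± 0.36 (adjusted p = 0.42). These genes had low values, and the difference in direction between the Ndufaf genes and the subunits was not tested. It was not shared by the 9 complex I assembly factors outside the symbol rule. Their median was 0.17, with 6 above 0 and 3 below.

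The symbol rule also took in a pair of genes whose annotation is not protein coding. Ndufb4c, a copy of Ndufb4, had 3.36, 7.57 and 64.2 normalized counts in knockout 1 to 3, against 43.3, 55.1 and 50.3 in controls 1 to 3. Knockout 3 was above all controls and the other knockout libraries were far below them, giving a log2 difference of −1.90 ± 0.87 that was not called (adjusted p = 0.122). Without knockout 3 it was called (adjusted p = 0.00331). Ndufb4 itself had 52.9, 30.9 and 51.0 in knockouts and 41.3, 41.3 and 54.6 in controls, a difference of −0.05 ± 0.32. Reads shared between them cannot be told apart, and their sum had a log2 difference of −0.58. Ndufb1-ps differed by −0.19 ± 0.29 (adjusted p = 0.645).

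None of the 4 genes of complex II, succinate dehydrogenase, was called, against 33.6% of all genes, and the median was −0.06. Sdha, the flavoprotein that oxidises succinate, had 446, 531 and 512 normalized counts in knockout 1 to 3, against 411, 445 and 413 in controls 1 to 3. The groups did not overlap, by a margin of about 1 count, and the difference was 0.23 ± 0.17 with a 95% interval of −0.15 to 0.61 (adjusted p = 0.31). Sdhb, the iron-sulphur subunit, differed by −0.19 ± 0.26 with an interval of −0.78 to 0.40. The membrane anchors Sdhc and Sdhd differed by 0.07 ± 0.20 and −0.32 ± 0.27. In limma, 0 of the 4 had an unadjusted p under 0.05.

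In complex V, the ATP synthase, 2 of 16 genes rose and 0 fell (12.5%, below the 33.6% of all genes), with a median of 0.04. Both encode the c subunit, which forms the rotating ring in the membrane, and their mature proteins are known to be the same. Atp5g3 had 589.7, 822 and 608 normalized counts in knockout 1 to 3, against 368, 388 and 347 in controls 1 to 3, a change of 0.86 ± 0.19 (limma adjusted p = 0.0105). Atp5g1 had 371, 468 and 434 in knockouts and 245, 267 and 253 in controls, a change of 0.73 ± 0.18 (adjusted p = 0.0153). In both genes the lowest knockout was above the highest control by a wide margin. The call of Atp5g3 was lost where knockout 1 alone was compared with the controls (adjusted p = 0.0639), and that of Atp5g1 there and without control 1 or 3 (adjusted p up to 0.128). Atp5g1 has a near-identical copy, Gm10039, and their sum also had a log2 difference of 0.73.

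In the catalytic F1 head of ATP synthase, 0 of 5 genes were called by limma, against 33.6% of all genes. Of the 5, 1, Atp5b, had an unadjusted p under 0.05. Atp5b encodes the catalytic beta subunit and had 3715, 4703 and 4982 normalized counts in knockout 1 to 3, against 3061, 3309 and 3111 in controls 1 to 3. The groups did not overlap, and the difference was 0.49 ± 0.17 (adjusted p = 0.0604, and 0.0302 with the replicate block). Atp5a1, the alpha subunit, had 2458, 2736 and 3051 in knockouts and 2858, 3175 and 2876 in controls, which overlapped, a difference of −0.12 ± 0.16 (adjusted p = 0.606). Atp5a1 was called lower in 1 alternative, with quantile normalization (adjusted p = 0.0241). Atp5d, the delta subunit, differed by 0.41 ± 0.19 (adjusted p = 0.127, and 0.0414 with the replicate block). With the block, 4 genes of complex V rose, Atp5b and Atp5d in addition to those for the c subunit. Without control 1 or 3, 1 gene of the complex rose (Atp5g3), and without knockout 1, 3 rose. The regulatory gene Atpif1 and the small subunit Usmg5, named differently in the annotation, lie outside the rule and differed by −0.24 ± 0.21 and 0.67 ± 0.24 (adjusted p = 0.401 and 0.0645).

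The knockout libraries differed among themselves in a way common to most of the 84 genes. Knockout 1 was the lowest of the 3 knockout libraries for 67 genes, 79.8%, against 32.7% of all genes tested. The highest was knockout 2 for 37 genes and knockout 3 for 42 genes, and knockout 1 for 5. The median deviation of the 84 genes from the control mean was −0.02 on the log2 scale in knockout 1, 0.32 in knockout 2 and 0.29 in knockout 3. Over all genes tested it was between −0.03 and −0.01 in each. By complex, the medians in knockout 1, 2 and 3 were −0.02, 0.32 and 0.24 for complex I and 0.24, 0.61 and 0.58 for complex III. They were 0.12, 0.53 and 0.27 for complex IV and −0.22, 0.12 and 0.32 for complex V. Complexes III and IV were thus above 0 in each knockout library, and complex V was on both sides. Knockout 1 is also the knockout library with Ddx3y and without Xist, and whether that moves with sex or with the animal cannot be told apart with 1 such library. With knockout 1 alone against the controls, the median was −0.02. In that comparison the spread comes from the controls only and the single knockout library is assumed to vary like them. It called 5 genes (5.95%, against 21.2% of all genes), with Uqcrq, Ndufa4 and Uqcrc1 above the controls and Cox6c and Ndufb4c below them.

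**Figure D3:**
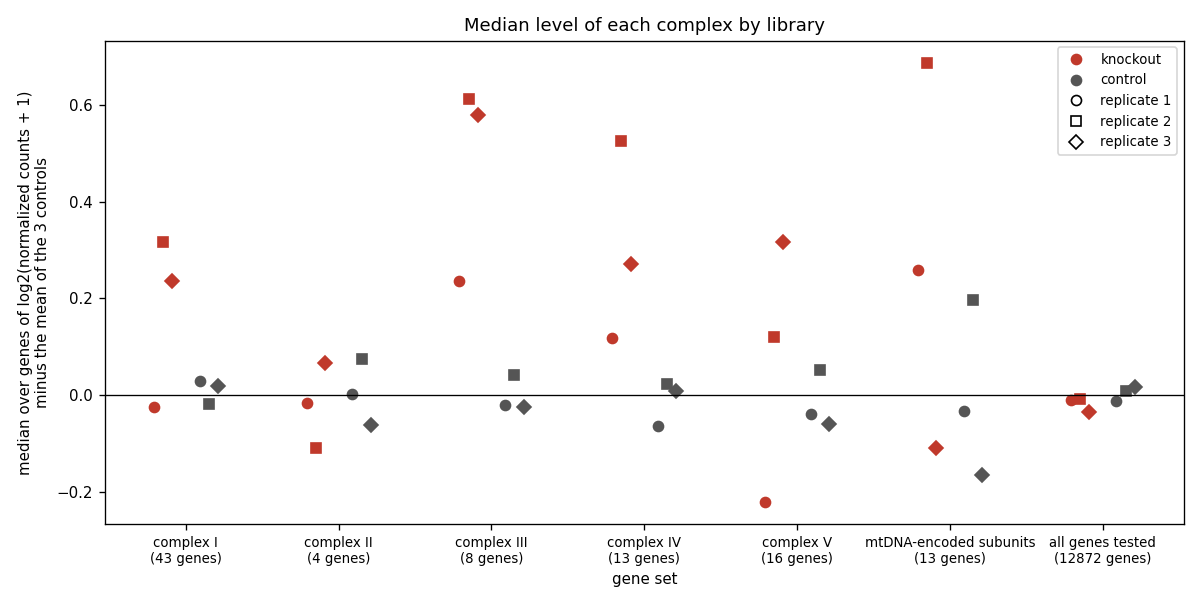
Median over genes of the log2 deviation from the mean of the 3 controls (vertical axis), per library, for each complex, for the 13 subunits encoded by mitochondrial DNA and for all genes tested, with knockouts in red left of controls in grey. For complexes III and IV all 3 knockout libraries lie above all 3 controls. In complexes I and V knockout 1 (circle) lies below all 3 controls.

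The number of calls depended on single libraries. Without control 1, 2 or 3, the genes that rose numbered 6, 7 and 6 and none fell. The shares that rose were 7.14%, 8.33% and 7.14%, against 11.9%, 12.1% and 11.8% of all genes, of which 8.98%, 8.61% and 8.68% fell. Over all genes tested, the same omissions left 2682, 2663 and 2631 calls, against 4328 with all 6 libraries. Without knockout 1, 2 or 3, 20, 12 and 11 of the 84 genes rose (23.8%, 14.3% and 13.1%, against 15.9%, 13.3% and 17.9% of all genes). In the same order 0, 0 and 3 fell (0.00%, 0.00% and 3.57%, against 14.2%, 12.1% and 16.9% of all genes). Leaving out knockout 1 added the calls of Ndufa7, Ndufb6, Ndufs5, Cox6a1 and Atp5b. Uqcrq and Ndufa4 were called in every alternative. With a replicate block for adjacent animal numbers, 24 genes were called (28.6%, against 44.9% of all genes), 22 higher and 2 lower (Ndufaf7 and Ndufa4l2), including all 18 called without it. Quantile normalization ended the calls of Uqcrc1, Cox5a and Ndufaf7, and a fit with no trend those of Cox5a and Ndufb9.

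A near-identical copy elsewhere in the annotation, with at least 95% identity over at least 80% of the coding sequence, was found for 23 of the 84 genes. The values of these genes are uncertain because reads can be split with the copy. Of the called genes, Cox5b, Atp5g1 and Ndufab1 were among them, and for Cox5b the sum with its copy Gm11273 had a log2 difference of 0.89. Among the 61 genes with no such copy, 14 rose and 1 fell, with a median of 0.23. Whether counting used strand is not stated, so reads of overlapping or antisense genes cannot be separated.

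The other genes of the pathway were taken from lists outside the symbol rule. None of the 13 subunits encoded by mitochondrial DNA was called by limma, against 33.6% of all genes. Of them, 2 (mt-Nd6 and mt-Cytb) had an unadjusted p under 0.05. The log2 difference was above 0 for 11 and below 0 for 2, and the median was 0.26. mt-Co1, the core of complex IV, had 73324, 103882 and 53018 normalized counts in knockout 1 to 3, against 50504, 59606 and 59917 in controls 1 to 3, a difference of 0.39 ± 0.28 (limma adjusted p = 0.306). mt-Cytb, the core of complex III, had 13628, 19338 and 10118 in knockouts and 9128, 9655 and 7479 in controls, a difference of 0.67 ± 0.26 (adjusted p = 0.073). Here knockout 3, not knockout 1, was the lowest knockout library. The median deviations were 0.26, 0.69 and −0.11 in knockout 1, 2 and 3.

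The list of electron carriers gave 5 of 18 genes higher and 2 lower (38.9% called, near the 33.6% of all genes). This list also held genes that make ubiquinone and those of the electron transfer flavoprotein and its dehydrogenase. It held Cyc1 too, a complex III subunit outside the symbol rule. Cyc1 had a log2 difference of 0.35 ± 0.16 and was not called (limma adjusted p = 0.12). Cycs, somatic cytochrome c, had 309, 531 and 329 normalized counts in knockout 1 to 3, against 139, 115 and 143 in controls 1 to 3, a change of 1.51 ± 0.25 (adjusted p = 0.00308). Coq8b, a kinase-like protein of ubiquinone synthesis, had 232, 314 and 225 in knockouts and 76.7, 109.8 and 79.2 in controls, a change of 1.53 ± 0.24 (adjusted p = 0.00241). Both calls held in all 15 alternatives, with adjusted p up to 0.0214 and 0.0251. Coq10b, a ubiquinone-binding protein, rose by 1.45 ± 0.35 (adjusted p = 0.0143, lost without control 1 or 2, at up to 0.0762). Coq9 and Coq7, which act together at a hydroxylation step of ubiquinone synthesis, fell. Coq9 had 46.7, 34.0 and 72.1 in knockouts and 97.4, 106 and 130.0 in controls, a change of −1.17 ± 0.31 (adjusted p = 0.0227). Coq7 had 15.9, 10.2 and 6.65 in knockouts and 26.4, 30.1 and 31.9 in controls, a change of −1.43 ± 0.46 (adjusted p = 0.0423). Both lost their call without any 1 control or without knockout 2, Coq9 also without knockout 1 and Coq7 also without knockout 3 (adjusted p up to 0.0854 and 0.227). Coq3, a methyltransferase of the same synthesis, and Etfb, of the electron transfer flavoprotein, rose by 1.02 ± 0.29 and 0.64 ± 0.20 (adjusted p = 0.0264 and 0.0382), calls lost without any 1 control, for Coq3 also without knockout 2 or 3 and for Etfb also without knockout 1 or 2 (up to 0.192 and 0.304). Equal library totals also ended the calls of Coq3 and Etfb, and quantile normalization that of Coq7.

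Assembly factors outside the symbol rule gave few calls. For complex III, 1 of 5 rose and 2 fell (60.0%, of 5 genes only, against 33.6% of all genes). Uqcc3, which acts early in building complex III, had 6.54, 6.81 and 17.7 normalized counts in knockout 1 to 3, against 49.1, 37.2 and 40.1 in controls 1 to 3, a change of −2.05 ± 0.48 (adjusted p = 0.013). Bcs1l, the ATPase that inserts the Rieske protein encoded by Uqcrfs1, had 11.2, 10.2 and 16.6 in knockouts and 40.8, 34.5 and 45.0 in controls, a change of −1.61 ± 0.38 (adjusted p = 0.0142). The knockout values of both were far below every control. Uqcc2 had 134, 271 and 216.2 in knockouts and 92.1, 109.8 and 121 in controls, a change of 0.89 ± 0.29 (adjusted p = 0.0429). The call of Uqcc3 was lost without control 1 (adjusted p = 0.0585), that of Bcs1l without control 1 or 3 (up to 0.0674) and that of Uqcc2 without any 1 control, without knockout 2 or 3, with equal library totals and with no trend (up to 0.467).

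For complex IV assembly, 2 of 22 fell and 0 rose (9.09%, against 33.6% of all genes). Lrpprc, which stabilises mitochondrial transcripts, had 166, 133 and 189.6 normalized counts in knockout 1 to 3, against 283, 247 and 282 in controls 1 to 3, a change of −0.74 ± 0.20 (adjusted p = 0.0249). Cmc1, a complex IV biogenesis protein, had 14.0, 3.40 and 16.6 in knockouts and 40.8, 40.7 and 39.2 in controls, a change of −1.97 ± 0.57 (adjusted p = 0.0295). Both calls were lost without any 1 control, that of Lrpprc also without knockout 2 (adjusted p up to 0.0859 and 0.0926). Of 9 further complex I assembly factors, Dmac1 rose by 1.10 ± 0.26 (adjusted p = 0.0134, and up to 0.128 without control 1 or with knockout 1 alone) and the rest were not called. None of 3 complex II and 4 complex V assembly factors was called, and at an unadjusted p under 0.05 there were 1 (Sdhaf3) and 0. Among 17 regulators of mitochondrial biogenesis and mitochondrial DNA, the helicase Twnk fell by 1.19 on the log2 scale (SE 0.37, adjusted p = 0.0369, lost without any 1 control, without knockout 2 or 3 and with no trend, at up to 0.305) and none rose. The called share of the 17 was 5.88%, against 33.6% of all genes. Tfam, which packages mitochondrial DNA, differed by 0.19 ± 0.22 (adjusted p = 0.532).

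**Figure D4:**
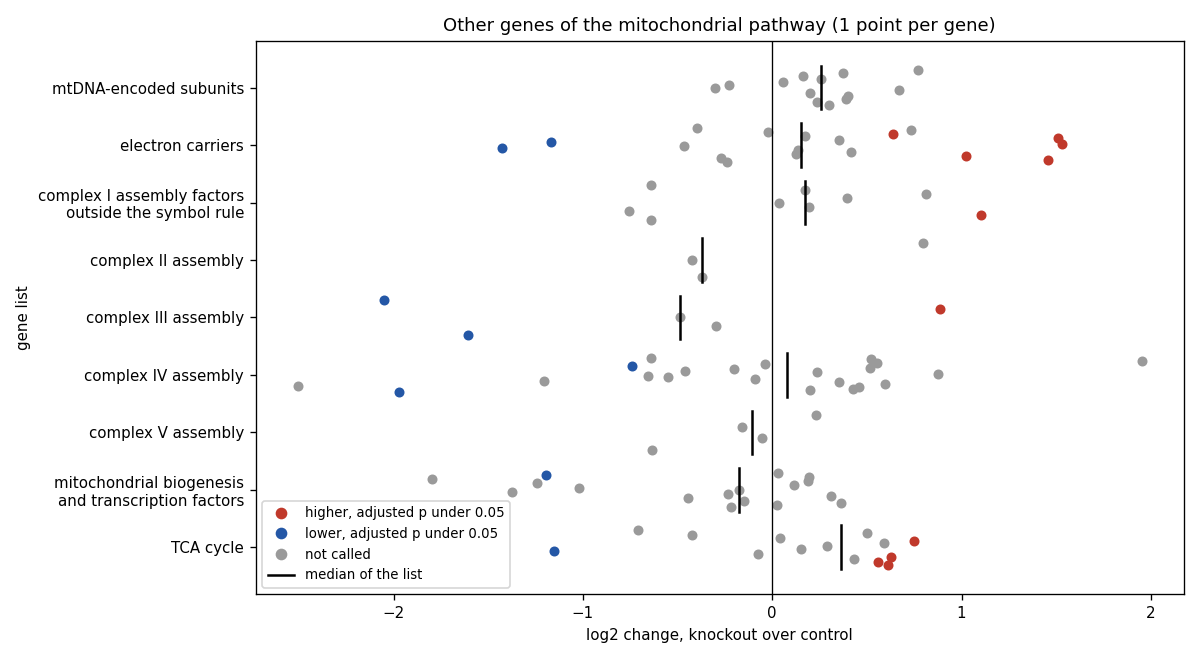
Log2 change (knockout over control, horizontal axis) of genes outside the symbol rule, 1 point per gene and 1 row per list, with the median of each list as a black bar. Red points rose and blue points fell at an adjusted p under 0.05. None of the 13 subunits encoded by mitochondrial DNA is coloured, and complex III assembly factors have red and blue points.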

How the data were processed

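Bulk RNA-seq of 6 libraries, 3 labelled knockout and 3 control, was analysed. The authors deposited normalized counts per Ensembl gene, a signal with no values below 0. The submitters' processing notes name Partek 9.0.20.0202, TopHat2 2.1.0 and mm39. The sources used here do not give the normalization method, the counting settings or the use of strand. Depth in reads is unknown and no count model was used. Sums of values were 6850663 to 10987666 per library and their medians 130.8 to 138.2.

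Symbols were matched for 12771 IDs and not for 123. Values were tested as log2(value + 1), a scale that understates the change of low genes, for genes above 1 in at least 3 libraries (12872). Knockout and control were compared with limma 3.58.1 in R 4.3.3 (lmFit, eBayes with trend). The Benjamini-Hochberg adjustment covered every gene tested, with a threshold of 0.05. Errors are moderated SE. The fit was tested on simulated data. Levels were not corrected for length and are not compared between genes. Copies were sought with blastn 2.17.0, with the coding sequence of each gene (the transcript where none is annotated) against all GENCODE transcripts. Promoters came from RefSeq on GRCm38.p6.

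By their titles, knockouts 217, 242 and 251 stand next to controls 216, 241 and 250. The correlation of deviations from the group mean was 0.37, 0.23 and 0.36 for these neighbours, so they were taken as pairs for a block, from the data and not from a stated litter. Separate animals are read from the titles.

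The genes and lists were chosen with earlier results of these data known. Named genes were those past the threshold with at least a 2-fold change, the 3 with the smallest adjusted p and the 2 with the highest mean per complex or arm, isoform pairs, those called against their complex, and up to 3 per further list. The other genes named with values (such as Uqcrc2, Cox5a, Ndufb9, Ndufb6, Cox6c, Atp5d, Nrf1 and Gabpa) were chosen after their values were seen. Single values of 2 genes are not reported here. Alternatives changed the pseudocount, filter, scaling, trend and block and left out libraries.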

Additional observations from a re-analysis of the deposited data

How the results depend on the processing

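The 17 genes called higher and the 1 called lower among the 84 kept those counts under pseudocounts of 0.5 and 5, no filter and a filter at 10, and no named result changed direction among those called. With equal library totals 5 rose and 7 fell with a median log2 change of −0.17. There complex I had 0 higher and 4 lower (median −0.22), complex II a median of −0.40, complex III 2 higher and 1 lower (0.14), complex IV 2 higher and 2 lower (−0.084) and complex V 1 higher (−0.30). The median of all genes moved by a similar amount, to −0.36. With quantile normalization 2 fell in all, 0 in complex I, 1 in complex IV and 1 in complex V. With the replicate block of adjacent animal numbers, 2 fell in all, 1 in complex IV, and 4 rose in complex V. It added the calls of Ndufb6, Ndufa7, Cox6a1, Ndufa4l2, Atp5b and Atp5d and changed no other call of the 84. With knockout 1 alone, where the controls alone give the spread, 3 rose and 2 fell (median −0.018). There 0 rose in complex I (−0.025), 2 in complex III (0.24), 1 in complex IV, where 1 fell, and 0 in complex V (−0.22). Without genes that have a near-identical copy, an alternative chosen after seeing the data, complex III had a median of 0.67 and complex V 1 higher. Leaving out 1 library at a time gave 6 to 20 higher, 0 to 3 lower and a median of 0.11 to 0.30 in all. It gave 0 to 8 higher and 0 to 2 lower (median 0.10 to 0.16) in complex I, a median of −0.16 to 0.034 in complex II and 1 to 4 higher (0.41 to 0.59) in complex III. It gave 2 to 5 higher and 0 to 1 lower (0.11 to 0.41) in complex IV and 1 to 3 higher (−0.08 to 0.17) in complex V. Where a call was lost, the cause was not tested, and fits that left out libraries also had fewer of them. For Sdha and Sdhb, which were not called, differences inside the intervals given were not excluded with 3 libraries a group.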

Other observations

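The TCA cycle, which feeds electrons into complexes I and II, had 4 of 14 genes higher and 1 lower in the knockout libraries, with a median log2 change of 0.36. The called share was 35.7%, near the 33.6% of all genes tested. Idh2, the mitochondrial NADP-dependent isocitrate dehydrogenase, had 201, 184 and 223 normalized counts in knockout 1 to 3, against 459, 464 and 426 in controls 1 to 3. Its change of −1.15 ± 0.17 (SE; limma adjusted p = 0.00217) was called in all 15 alternatives, with adjusted p up to 0.0143. Mdh2, malate dehydrogenase of the mitochondrion, had 675, 956 and 809 in knockouts and 410.0, 514 and 524 in controls, a change of 0.75 ± 0.20 (adjusted p = 0.0213, lost without control 1 or 2, without knockout 2 and with equal library totals, at up to 0.18 over all alternatives). Dlst and Cs rose by 0.63 ± 0.18 and 0.56 ± 0.16 (adjusted p = 0.0278 and 0.03), calls lost without any 1 control, without knockout 2, with equal library totals and with no trend, for Cs also without knockout 3 and with quantile normalization, at up to 0.214 and 0.694 over all alternatives.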
